A study of Homo sapiens with 14 samples.

Results

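Binding of the NF-κB subunits p50, p52, RelA and RelB was examined at 7 genes whose proteins switch NF-κB signalling on or off: TNFAIP3 (ENSG00000118503), TNIP1 (ENSG00000145901), TRAF1 (ENSG00000056558), TRAF2 (ENSG00000127191), TRAF3 (ENSG00000131323), CYLD (ENSG00000083799) and MAP3K14 (ENSG00000006062), which encodes the kinase NIK. A binding region was assigned to a gene when the authors' table listed that gene as the closest gene or as the closest transcription start site (TSS). Of the 14865 regions bound by at least 1 subunit, 44 were assigned to 6 of the 7 genes, with 18 at TNFAIP3, 10 at TRAF3, 7 at TNIP1, 5 at TRAF1, 3 at MAP3K14 and 1 at CYLD. TRAF2 was the closest gene or TSS of 0 regions.

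The study mapped subunit binding by chromatin immunoprecipitation and sequencing (ChIP-seq) in L1236, an established Hodgkin lymphoma cell line with constitutively active NF-κB, and the labels name no added stimulus. Each of the 4 subunits was precipitated in 2 replicates and 6 input libraries were sequenced, and the p52 replicates used different antibodies whereas each other subunit had 1 antibody. The deposited values merge both replicates of a subunit, so there is 1 value per subunit and region, and differences between subunits or regions were not tested against replicate spread. All results come from this single cell line, and the assignment of a region to its closest gene does not show that the gene is regulated from it.

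NF-κB dimers reach the nucleus by a canonical route, in which inhibitory IκB proteins are degraded and dimers containing RelA are released, and by a non-canonical route, in which NIK stabilization leads to processing of p100 to p52 and to dimers containing RelB. TNFAIP3 (A20), its partner TNIP1 (ABIN1) and the deubiquitinase CYLD restrain the canonical route by acting on ubiquitin chains, and TRAF3 holds the non-canonical route in check by bringing NIK to a ubiquitin ligase complex that contains TRAF2 and cIAP proteins. Several of these genes are themselves NF-κB targets, and loss of TNFAIP3, TRAF3 or CYLD function is a known route to constitutive NF-κB activity in lymphoid tumours.

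The κB consensus, the letters that NF-κB dimers recognize, was looked for on both strands of the RefSeq promoters of the 7 genes (GRCh38.p14, 250 bases before to 50 bases after a start). It was found in 5 of 12 promoter sequences, which belong to 4 genes, and in 11.3% of all 35116 RefSeq promoters. The bases upstream of the start are shown for those 4 genes, because these are also the genes whose TSS region was called for all 4 subunits. They lie at chr6:137867009-137867258 on the plus strand for TNFAIP3, chr5:151081035-151081284 on the minus strand for TNIP1, chr14:102777199-102777448 on the plus strand for TRAF3 and chr16:50741836-50742085 on the plus strand for CYLD. Each sequence reads 5′ to 3′ toward the start, and capitals mark the κB consensus on either strand.
TNFAIP3: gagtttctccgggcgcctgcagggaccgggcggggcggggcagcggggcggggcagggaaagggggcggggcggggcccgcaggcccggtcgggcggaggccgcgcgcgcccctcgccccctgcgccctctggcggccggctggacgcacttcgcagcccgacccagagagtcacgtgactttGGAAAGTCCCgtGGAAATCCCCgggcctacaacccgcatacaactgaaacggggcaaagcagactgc
TNIP1: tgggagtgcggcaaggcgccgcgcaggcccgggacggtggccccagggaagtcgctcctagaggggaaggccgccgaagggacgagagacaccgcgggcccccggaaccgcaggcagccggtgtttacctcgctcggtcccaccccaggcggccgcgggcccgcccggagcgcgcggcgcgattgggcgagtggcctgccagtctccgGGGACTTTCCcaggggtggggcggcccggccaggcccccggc
TRAF3: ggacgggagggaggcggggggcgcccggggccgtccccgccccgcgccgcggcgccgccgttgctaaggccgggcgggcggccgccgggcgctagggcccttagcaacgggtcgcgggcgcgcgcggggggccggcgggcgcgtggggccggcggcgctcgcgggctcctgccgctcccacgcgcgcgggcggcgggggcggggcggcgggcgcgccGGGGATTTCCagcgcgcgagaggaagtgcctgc
CYLD: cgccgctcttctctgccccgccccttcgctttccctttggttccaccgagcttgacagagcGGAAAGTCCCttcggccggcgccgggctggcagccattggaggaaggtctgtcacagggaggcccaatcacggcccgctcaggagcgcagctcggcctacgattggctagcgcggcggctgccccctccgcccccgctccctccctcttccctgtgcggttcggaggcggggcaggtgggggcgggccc
The TNFAIP3 promoter held 2 matches, at -67 to -58 and at -55 to -46 counted from the RefSeq start. The single match in the other promoters stood at -42 to -33 in TNIP1, at -33 to -24 in TRAF3 and at -189 to -180 in CYLD, where a second promoter sequence held another match beginning at its own start. The 9-letter motif GGNNNTTCC, which overlaps many κB matches, was present in 7 of the 12 promoter sequences, from 5 genes, and in 20.1% of all promoters, and the promoters of TRAF1, TRAF2 and MAP3K14 held no κB consensus in these windows. These starts come from another build and annotation than the binding regions (hg18, Ensembl version 54), so the offsets were not compared with the ChIP-seq summits.

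Over the 44 regions, RelA, RelB and p52 were called in larger shares than over all regions, while p50 was called in a similar share. A subunit counts as called in a region where the authors listed a peak that passed their thresholds in both replicates together. RelA was called in 8 of the 44 regions (18.2%, Wilson 95% interval 9.51% to 32%), beside 3.31% of all regions. RelB was called in 20 regions (45.5%, 31.7% to 59.9%), beside 26.8% of all regions. For p52 the count was 39 regions (88.6%, 76% to 95%), beside 73.3%, and for p50 it was 32 regions (72.7%, 58.2% to 83.7%), beside 73.8%. These intervals treat regions as independent draws and cover counting error only, and regions of 1 gene share their locus. The contrast of p52 with p50 depended on TNFAIP3, where p52 was called in 17 of 18 regions and p50 in 11. Over the 26 regions of the other genes, p52 was called in 22 and p50 in 21, with RelB in 16 and RelA in 7.

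Every region called for RelA was also called for the other subunits, beside 349 of the 492 RelA regions in the whole table. The regions with all 4 subunits are therefore the same 8 as the RelA regions (18.2%), beside 2.35% of all regions. Their genes were TRAF3 with 3 such regions, TNIP1 with 2, and TNFAIP3, TRAF1 and CYLD with 1 each. Of the 6 genes with a region, 5 had at least 1 region with all 4 subunits (83.3%, 43.6% to 97%), beside 362 of 8450 genes (4.28%). Only 6 genes in the whole table had 3 or more such regions, and 26 had 2 or more. These gene counts are not matched for the number of regions per gene. The median over all genes was 1 region, whereas TNFAIP3 had 18, TRAF3 10, TNIP1 7, TRAF1 5, MAP3K14 3 and CYLD 1. A gene with more regions has more chances to hold a region with all 4 subunits. The remaining patterns were p50 with p52 (11 regions), p50 with p52 and RelB (9), p52 alone (9), p50 alone (4), p52 with RelB (2) and RelB alone (1). p50 and p52 shared 28 regions (63.6%, 48.9% to 76.2%), beside 51.4% of all regions. A call of p52 without p50 was listed in 11 regions (25%, 14.6% to 39.4%), beside 21.9%. A call of p50 without p52 was listed in 4 regions (9.09%, 3.59% to 21.2%), beside 22.4%. The intervals for shared regions and for p52 without p50 contained the share of all regions.

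All 4 subunits were called in a larger share of the promoter regions than of the regions away from a TSS. A TSS was overlapped by 5 of the 44 regions (11.4%, 4.95% to 24%), beside 16.5% of all regions, and these were the promoters of TNFAIP3, TNIP1, TRAF1, TRAF3 and CYLD. RelB was called at all 5, beside 25.9% of the 2447 regions that overlap a TSS in the whole table. RelA was called at 4 of the 5, beside 4.74%, and the same 4 carried all 4 subunits, beside 3.56%. Away from a TSS the shares were lower, with RelA called in 4 of 39 regions (10.3%, 4.06% to 23.6%), beside 3.03%, and RelB in 15 of 39 (38.5%, 24.9% to 54.1%), beside 27.0%. The other 4 regions with all 4 subunits were among these 39. The promoter regions were 1489 to 2354 bp wide, beside a median of 863 bp over all regions, and the shares were not matched for width. The 4 RelA calls at promoters were also the ones that had an irreproducible discovery rate (IDR, the authors' measure of agreement between replicates) below 0.001. At that limit, chosen after the values were seen, RelA was called in 4 of the 44 regions (9.09%), beside 1.50% of all regions, and RelB in 11 (25%), beside 13.5%.

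**Figure D1:**
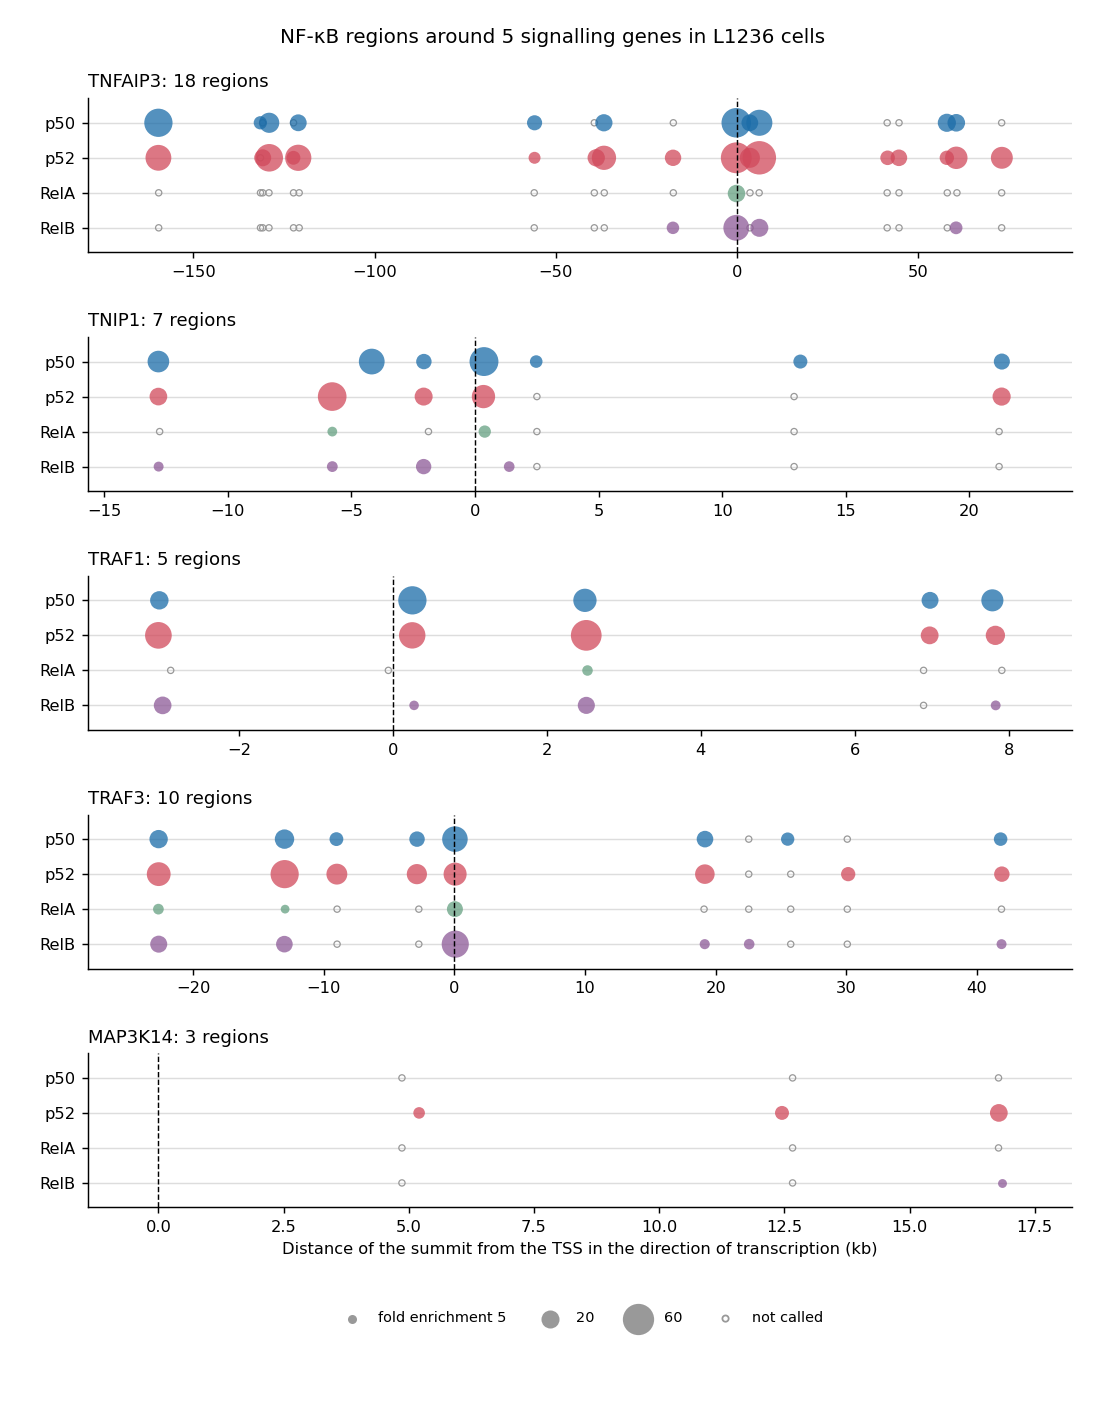
Position of the binding regions around 5 genes; the x axis is the distance from the hg18 TSS in kb, with the direction of transcription to the right, and each row is a subunit. Filled circles are called summits with an area proportional to fold enrichment over input, and open circles mark the middle of regions where the subunit was not called; RelA circles are filled at 1 TNFAIP3 region, the promoter, at 3 TRAF3 regions and at 0 MAP3K14 regions.

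Among the inhibitors, TNFAIP3 had the most regions. TNFAIP3 encodes a ubiquitin-editing enzyme that shuts down signalling from TNF and Toll-like receptors. Its 18 regions spanned 233418 bp, and 10 of the 8450 genes with a region had more, beside a median of 1 region per gene and a largest number of 32. Of these regions, 10 lay upstream of the TSS, 7 downstream and 1 over it. Only 3 were within 10 kb of the TSS, and 6 were more than 100 kb upstream.

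The TNFAIP3 promoter region (chr6:138228897-138231250, hg18) was among the most enriched regions of the whole table for each subunit. Fold enrichment over input was 53.4 for p50, 58.4 for p52, 18.9 for RelA and 41.0 for RelB. Ranked among all called regions of the subunit, these were positions 188 of 10975, 304 of 10893, 6 of 492 and 25 of 3984. The region held 420 p50, 411 p52, 97 RelA and 244 RelB reads. The summits stood at -243 (p50), -236 (p52), -234 (RelB) and -224 (RelA) bp from the TSS, all 4 within 19 bp of each other. Both signal values, the only values given per replicate, were high for every subunit, with the lowest of the 8 at percentile 80.6 and the highest at 99.7 among the called regions.

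The region 5721 bp downstream of the TNFAIP3 start (chr6:138235995-138236698), inside the gene, had the highest p52 enrichment of the 44 regions. Its p52 fold enrichment was 68.6 (position 131 of 10893), with 41.7 for p50 and 19.9 for RelB, and the 3 summits were within 1 bp of each other. RelA was not called there and had 19 reads (exact Poisson 95% interval 11.4 to 29.7), at percentile 87.4 of RelA reads per kb over all regions. The RelB signal values of the replicates were far apart, at percentiles 38.2 and 87.4.

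Of the 15 TNFAIP3 regions beyond 10 kb, p52 was called in 14 (93.3%, 70.2% to 98.8%), beside 78.3% of all regions at that distance, and p50 in 8 (53.3%, 30.1% to 75.2%), beside 67.2%. RelB was called in 2 (13.3%, 3.74% to 37.9%), beside 27.1%, and RelA in 0 (0% to 20.4%), beside 3.08%. All 4 intervals contained the share of all distal regions. The farthest region lay 159025 bp upstream (chr6:138070220-138071249), had fold enrichments of 49.0 for p50 and 40.9 for p52, and held 17 RelA and 14 RelB reads without a call. The strongest of the other upstream regions for p52 lay 128795 bp from the TSS (chr6:138100829-138101479), with 46.6 for p52 and 25.0 for p50. RelB was called 17207 bp upstream with p52 (9.61 and 16.5) and 59695 bp downstream with p50 and p52 (10.0, 19.0 and 30.9). For the downstream region the p50 replicates were far apart, with signal values at percentiles 62.5 and 0.182.

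A pair of neighbouring TNFAIP3 regions had different calls. The regions 131205 and 130585 bp upstream are 84 bp apart, and the first was called for p50 alone and the second for p52 alone. The first held 45 p50 reads (32.8 to 60.2) and 57 p52 reads (43.2 to 73.9). The subunit without a call had the larger raw count, but the intervals overlap, so the reads did not separate the subunits there. The second held 31 p50 reads (21.1 to 44.0) and 63 p52 reads (48.4 to 80.6), so there the larger count was that of the called subunit.

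TNIP1, which encodes a ubiquitin-binding partner of TNFAIP3, had 7 regions, and p50 was called in all 7, beside 73.8% of all regions. p52 was called in 5 (73.3% of all regions), RelB in 4 (26.8%) and RelA in 2 (3.31%). The promoter region (chr5:150439391-150441404) had fold enrichments of 51.2 for p50, 33.4 for p52, 9.32 for RelA and 7.02 for RelB. Its p50, p52 and RelA summits lay between 342 and 394 bp downstream of the TSS, whereas the RelB summit lay at 1383 bp, 989 bp from the RelA summit. The table lists 1 summit per subunit and region, that of the most significant peak, so a weaker RelB peak near the other summits would not appear, and the region held 185 RelB reads in all. The region 3552 bp upstream (chr5:150444742-150447725) also carried all 4, with 40.7 for p50, 50.4 for p52, 5.87 for RelA and 7.17 for RelB. There the p52, RelA and RelB summits were within 5 bp of each other and the p50 summit stood 1600 bp from the p52 summit. Next to it, the region 1390 bp upstream had the highest RelB enrichment at TNIP1 (14.5), with 14.6 for p50 and 19.9 for p52, and 32 RelA reads (21.9 to 45.2) without a call. The region 12005 bp upstream, called for p50 (28.8), p52 (19.2) and RelB (6.07), lay closer to another gene (ENSG00000197043) and was assigned to TNIP1 by its TSS. The p50 regions 2098 and 12346 bp downstream were among the weakest, at 9.74 and 12.1.

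CYLD, a deubiquitinase that removes signalling ubiquitin chains, had a single region, over its TSS (chr16:49332585-49334723). Fold enrichment was 45.9 for p50, 43.8 for p52, 10.5 for RelA and 22.6 for RelB, and the reads were 432, 384, 77 and 279. The p50 and p52 summits were 5 bp apart and the RelA and RelB summits 4 bp apart, but these pairs stood 470 to 479 bp from each other. Since 1 summit per subunit is listed, weaker peaks of either pair at the other position would not appear. Both signal values of each subunit lay between percentiles 74.0 and 97.5.

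TRAF3, the adaptor that directs NIK to degradation, had 10 regions, of which 4 were upstream of the TSS, 5 downstream and 1 over it. The promoter region (chr14:102312382-102314498) had the highest RelB enrichment of the 44 regions, 45.2, at position 16 of 3984. RelA stood at 15.7, position 9 of 492, with 40.0 for p50 and 32.6 for p52. The summits of the 4 subunits lay between 33 and 60 bp downstream of the TSS. Both RelB signal values were near the top, at percentiles 99.7 and 98.2, whereas the p52 values were at 39.8 and 80.5.

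All 4 subunits were called again 22057 and 12554 bp upstream of TRAF3. The first (chr14:102290503-102291512) had 20.6 for p50, 34.8 for p52, 7.06 for RelA and 17.8 for RelB. The second (chr14:102300155-102301015) had 23.1, 48.7, 4.72 and 17.0, and its RelA value, from 31 reads, was the lowest RelA enrichment of the 8 regions. Summits in both regions were within 55 bp of each other. Among the other TRAF3 regions, the one 22315 bp downstream was called for RelB alone (6.89, 19 reads), the only such region of the 44.

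TRAF1, an adaptor without a RING domain that binds TRAF2 and cIAP proteins, had 5 regions within 10 kb of its TSS. Both p50 and p52 were called in all 5, beside 73.8% and 73.3% of all regions. The TRAF1 promoter region (chr9:122730185-122731673) was highly enriched for p50 (49.0) and p52 (42.8) and weakly for RelB (5.60, position 3342 of 3984). RelA was not called there and had 32 reads (21.9 to 45.2). The promoter of TRAF1 was thereby the exception among the 5 TSS regions. The strongest RelB value at TRAF1 was 19.2, in the region 2215 bp upstream, and RelA was called 1597 bp downstream of the TSS (chr9:122727528-122729271) with 6.80, beside 33.3 for p50, 57.9 for p52 and 18.0 for RelB. That RelA call rested on replicates that were far apart, with signal values at percentiles 77.0 and 1.02. A further region 6568 bp downstream held 32 RelA reads in a narrower window, at percentile 97.6 of RelA reads per kb over all regions, without a RelA call.

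MAP3K14, which encodes the kinase that starts the non-canonical route, had 3 regions, all inside the gene and none over its TSS. p52 was called in all 3, beside 73.3% of all regions, with fold enrichments of 8.26, 12.0 and 19.3 at 4334, 12240 and 16464 bp downstream of the TSS. RelB was called in the last (4.86), beside 26.8% of all regions. p50 and RelA were called in 0 of the 3, beside 73.8% and 3.31% of all regions. The absence of a p50 call did not mean absence of reads, since the first region held 90 p50 reads (72.4 to 111) and 82 p52 reads. The second held 16 p50 reads (9.15 to 26.0) and 52 p52 reads. The first and second p52 values were low, at percentiles 2.88 and 22.7 of all p52 regions, whereas the highest stood at percentile 56.9.

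**Figure D2:**
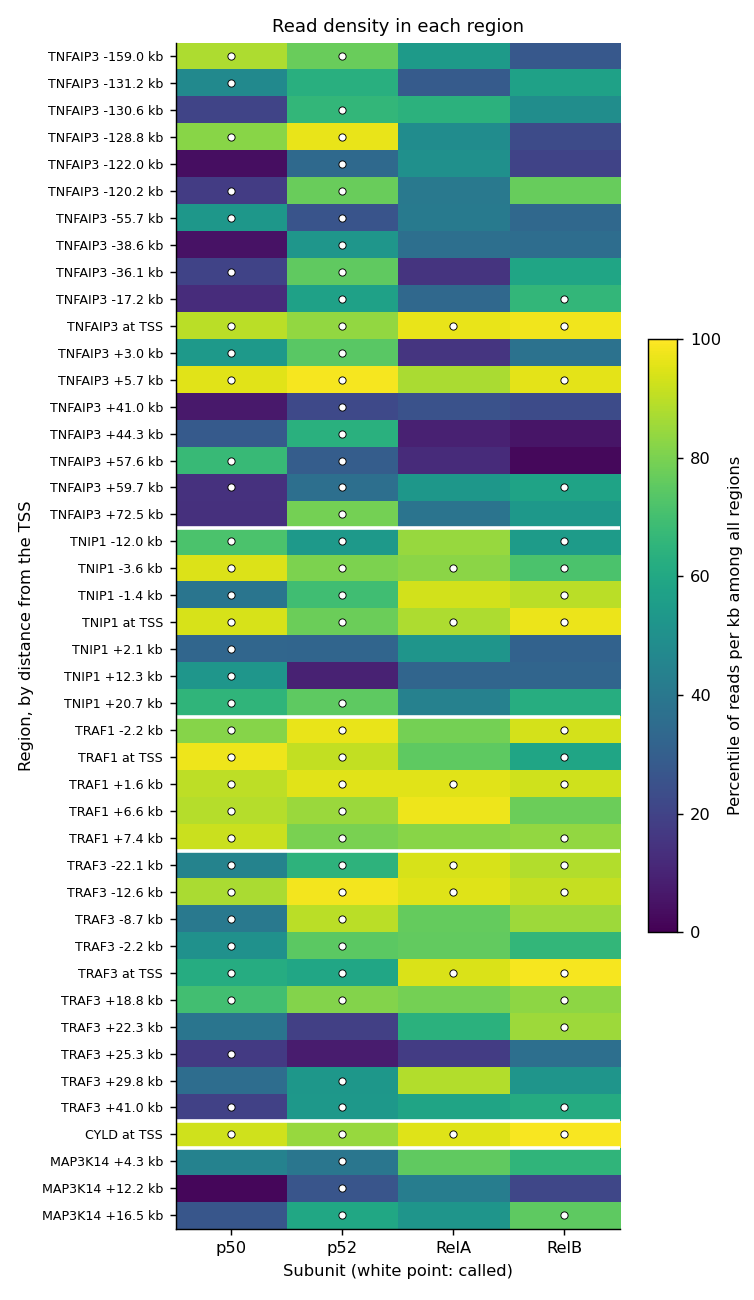
Reads per kb in each of the 44 regions, as a percentile among all 14865 regions, for each subunit; rows are regions ordered by gene and by distance from the TSS, columns are subunits, and white points mark calls. The TSS rows of TNFAIP3, TNIP1, TRAF3 and CYLD are bright for RelA and RelB, and several regions without a RelA call, such as the one 6568 bp downstream of the TRAF1 TSS, have a high RelA density.

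The median fold enrichment of the called regions was above that of all called regions for p52. For p50 and RelA it was higher too, but their intervals contained the value of all called regions. For RelB the direction depended on TNFAIP3. The median p52 fold enrichment was 24.8 (95% interval from order statistics 19.2 to 34.8, n = 39 regions), beside 17.2 over all p52 regions, which places it at percentile 70.9. For RelA it was 8.19 (4.72 to 18.9, n = 8), beside 6.23, at percentile 81.7. For p50 it was 19.6 (15.8 to 30.0, n = 32), beside 16.8, and for RelB 9.82 (6.27 to 18.0, n = 20), beside 9.08, at percentiles 60.6 and 55.4. Without the TNFAIP3 regions the RelB median was 7.09, below the value of all regions, and by pileup or by the second signal value the RelB median stood at percentile 44.1 or 36.3. The RelA median stood at percentile 60.2 by pileup and at 72.4 or 58.9 by the signal value of a single replicate. These intervals also treat regions as independent, although 17 of the 39 p52 regions belong to TNFAIP3.

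The promoters were high among other promoters for p50, p52 and RelA. Among regions that overlap a TSS and were called for the subunit, the p50 values of these promoters spanned percentiles 90.2 to 97.3 and their p52 values 84.2 to 97.1. For RelA the 4 called promoters lay between percentiles 80.2 and 97.4. RelB covered nearly the full range, from 17.7 at TRAF1 to 99.1 at TRAF3, with TNIP1 at 35.5. They were not the most enriched regions of their genes throughout, since for p52 a region away from the TSS exceeded the promoter at TNFAIP3, TNIP1, TRAF1 and TRAF3.

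**Figure D3:**
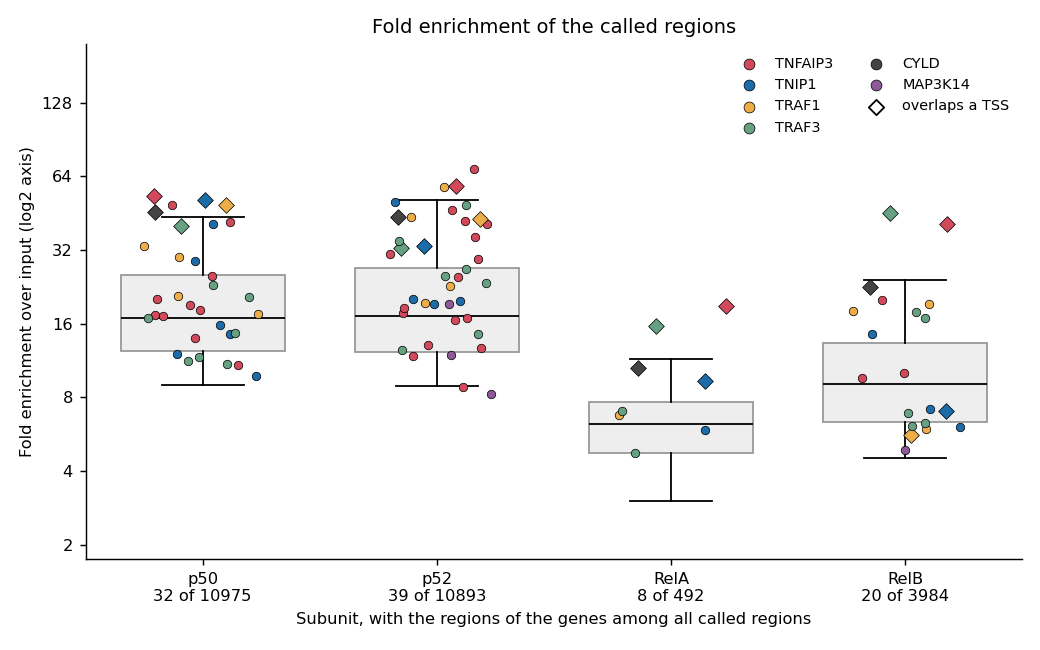
Fold enrichment over input on a log2 axis for the called regions of the 6 genes, coloured by gene, with diamonds for regions over a TSS. Grey boxes give the quartiles and the 5th to 95th percentiles of all called regions of the subunit; the p50 diamonds sit between 40.0 and 53.4, and the RelB diamonds range from 5.60 to 45.2.

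Where 2 subunits were called in a region, their summits were mostly close. Listed p50 and p52 summits were within 250 bp in 27 of 28 regions with a median distance of 8 bp, beside 95.3% of 7643 regions and a median of 11 bp. p52 and RelB were within 250 bp in 17 of 19 regions (92.1% of all such regions), and RelA and RelB in 7 of 8 (88.6%). p50 and RelB were within 250 bp in 14 of 17 regions (91.5%), and the 3 with a larger distance were the TNIP1 promoter, its upstream region and the CYLD promoter.

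The balance of p50 and p52 reads differed between promoters and distal regions, as it also did over the whole table. It was measured as the log2 ratio of p50 to p52 reads in a region minus the median of this ratio over all regions, so that positive values mean more p50 than in the median region. Over the 44 regions the median was -0.40 (95% interval -0.62 to 0.10), with 17 regions above 0 and 27 below. All 5 promoter regions were above 0, beside 2226 of the 2447 TSS regions in the whole table, so this sign is not particular to these genes. The values were 0.61 for TNIP1, 0.34 for TRAF1, 0.27 for CYLD, 0.13 for TNFAIP3 and 0.10 for TRAF3. The exact binomial intervals of TNFAIP3 (-0.07 to 0.33) and TRAF3 (-0.17 to 0.38) included 0. Even so, all 5 lay below the median of TSS regions in the whole table, 0.96, between percentiles 11.8 and 30.1 of those regions. Relative to all TSS regions, these 5 therefore held more p52 for their p50. All 5 were called for both subunits, whereas of the 2447 TSS regions 2351 were called for p50 and 1300 for p52. The balance was not compared with that of TSS regions called for both.

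Distal regions leaned to p52, and more so at TNFAIP3. Beyond 10 kb from the TSS the median was -0.58 over 27 regions, of which 74.1% were below 0, beside -0.29 and 61.6% over all regions at that distance. TNFAIP3 contributed 15 of the 27, with a median of -0.91 and 12 of 15 below 0, and its lowest value, -1.62, was found 38586 bp upstream, where 46 p50 and 153 p52 reads were counted. The other 12 distal regions had a median of -0.28 with 8 below 0, close to that of all distal regions, so the difference from all distal regions came from TNFAIP3. Over the 26 regions of the other 5 genes at any distance the median was -0.09. TNIP1 leaned the other way, with a median of 0.43 and 5 of 7 regions above 0, up to 1.45 in the region 12346 bp downstream that was called for p50 alone. Within TRAF1 the values ran from -1.04 to 0.42 and within TRAF3 from -1.29 to 0.78.

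Calls and reads did not always go together. Of the 11 regions called for p52 without p50, 10 had a balance below 0 and the interval of 8 lay wholly below 0. Of the 4 regions called for p50 without p52, 3 had a balance above 0 and the interval of 2 lay wholly above 0. The other 3 and 2 regions, respectively, had intervals that spanned 0, so that the reads did not separate the subunits at this depth. The intervals cover counting error only, since both counts come from merged replicates and the p52 libraries used 2 antibodies.

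**Figure D4:**
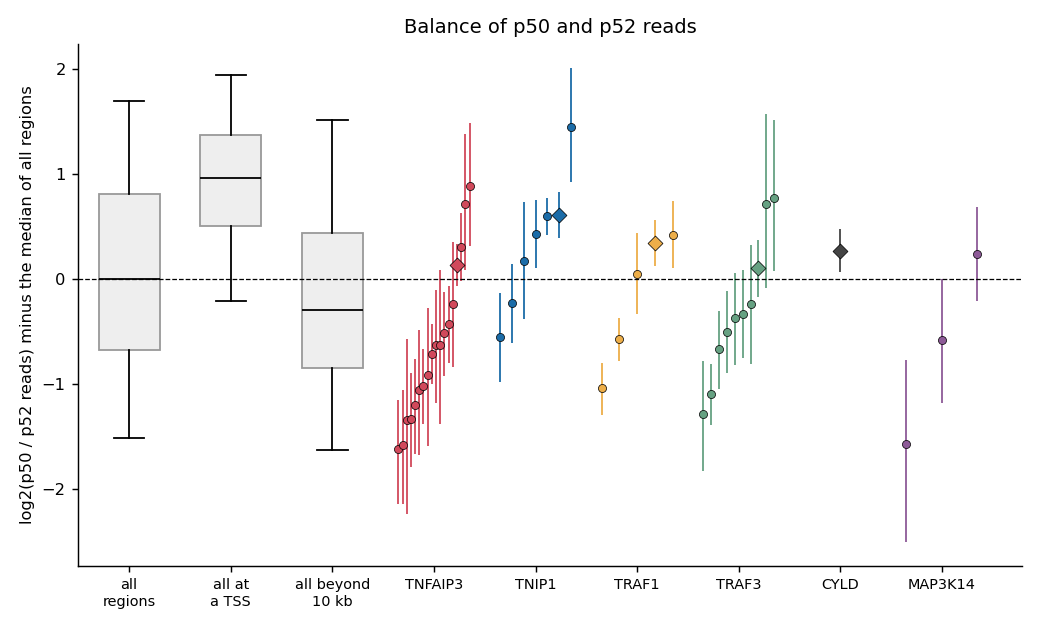
Balance of p50 and p52 reads, as log2(p50/p52) minus the median of all regions, for each region by gene with exact binomial 95% intervals; diamonds overlap a TSS and grey boxes give the quartiles and 5th to 95th percentiles of all regions, of those over a TSS and of those beyond 10 kb. The 5 diamonds lie between 0.10 and 0.61, below the TSS median of 0.96.

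The agreement of replicates could be examined through the 2 signal values of each called region, which are compared as percentiles among all called regions of the subunit because their scale is not stated. The percentiles differed by at most 25 points in 27 of 32 p50 regions, 34 of 39 p52 regions, 7 of 8 RelA regions and 14 of 20 RelB regions. Both values were above the middle of the called regions in 17 p50, 24 p52, 4 RelA and 8 RelB regions. The RelA regions in this class were the promoters of TNFAIP3, TNIP1, TRAF3 and CYLD. None of these counts was compared with that over all called regions, so they do not show whether agreement here was higher or lower. The order of the replicates behind these values is not given, nor is the antibody behind each p52 value.

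**Figure D5:**
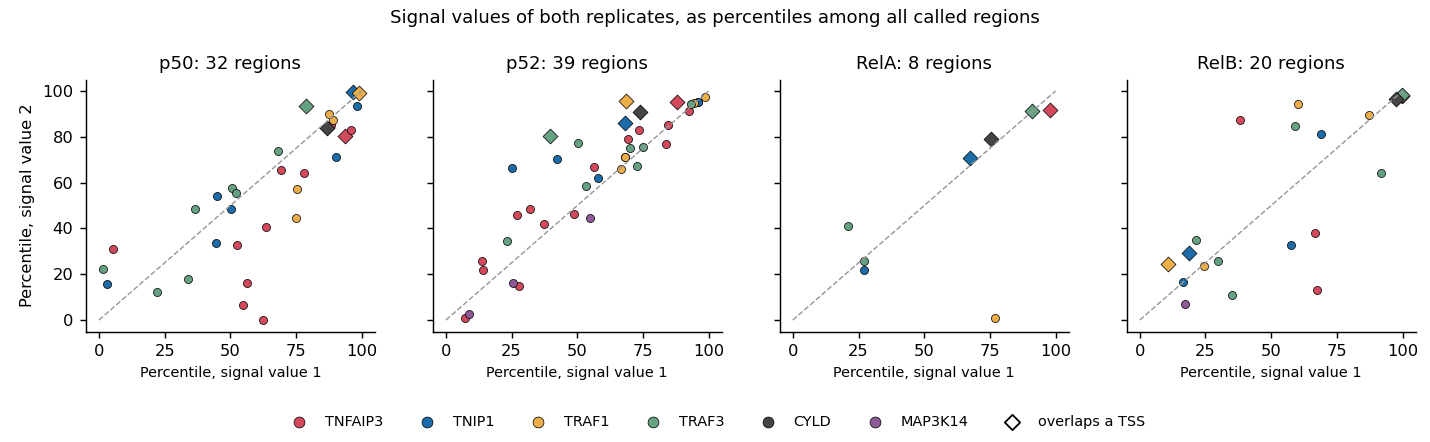
Signal values of the replicates as percentiles among all called regions of each subunit, with value 1 on the x axis and value 2 on the y axis; points are regions coloured by gene, diamonds overlap a TSS and the dashed line marks equal percentiles. The 4 RelA diamonds lie near the line, and the TRAF1 point of RelA lies at 77.0 and 1.02.

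Of 32 further genes of the pathway, such as other TRAF proteins, IκB kinase subunits and ubiquitin ligases, 2 could be paired with the Ensembl identifiers of the table. The others were not analysed here. The pairing relied on the study's own supplementary gene lists, so these 2 are not a neutral sample of the 32. Both encode cIAP proteins, ubiquitin ligases that act with TRAF2 and TRAF3 on NIK. At the BIRC3 (cIAP2) promoter all 4 subunits were called, with fold enrichments of 55.4 for p50, 81.9 for p52, 15.5 for RelA and 39.0 for RelB. At the BIRC2 (cIAP1) promoter p50 (25.1), p52 (17.7) and RelB (21.5) were called and RelA, with 39 reads, was not.

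The genes most like each member were sought over 8 values per gene, the number of called regions and the highest fold enrichment of each subunit on a log2 scale. The gene nearest to TNFAIP3 was ENSG00000185338, at a Euclidean distance of 0.84, with 15 regions, of which 11 were called for p50, 14 for p52, 1 for RelA and 5 for RelB. For TNIP1, AZIN1 was second at 0.946, with 7 regions called for both p50 and p52, 1 for RelA and 3 for RelB. MAP3K14 was nearest to ENSG00000121152, at 0.546, which also had 3 regions with no p50 and no RelA call. The other nearest genes are listed in the table by Ensembl identifier alone.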

How the data were processed

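ChIP-seq of p50, p52, RelA and RelB (2 replicates each) and 6 input libraries of L1236 cells were the source. The authors aligned reads to hg18 with Bowtie, kept uniquely mapping reads, removed duplicates with SAMtools, reduced libraries randomly to equal size, called peaks with MACS and compared replicates by IDR. The deposited table lists 14865 union regions. Its read counts are whole numbers per region from merged replicates, deposited without normalization. Fold enrichment, as deposited, divides ChIP by input at the summit, the deposited pileup is a coverage signal, and the FDR is the authors' q-value. The deposited signal values are a score per replicate. The methods name an IDR threshold of 0.05, while the largest deposited IDR, a fraction, is 0.01.

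Regions were selected by Ensembl identifier. The genes and lists were chosen with earlier results of these data known. All 7 genes are named with their regions, the most enriched region of each subunit, the 2 most similar genes per member where informative, and pathway genes with a RelA or RelB call. Negative distances are upstream; this sign was checked on 27 regions of genes with known hg18 positions, of which 27 were exact, and TSS positions and summit offsets follow from it. Balance used a pseudocount of 0.5. Library totals were not used; the regions held 1654137 p50, 1810792 p52, 315151 RelA and 470788 RelB reads, which sets the precision given by the Poisson, binomial and Wilson 95% intervals. Sequences are from RefSeq (GRCh38.p14), matched by symbol for 7 of 7 genes. No test between groups was made, since replicates are merged. Interval functions were tested on simulated data. Computations ran in Python 3.11.15 with scipy 1.17.1, pandas 2.3.3, numpy 2.4.6 and matplotlib 3.10.9.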

Additional observations from a re-analysis of the deposited data

How the results depend on the processing

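Of 87 values recomputed under other settings, 81 stayed within 1.5 times the count, or within the interval of the median, that the report gives, and 6 moved. The planned limits of IDR below 0.01, FDR below 1e-05 and fold enrichment of at least 5, the use of the closest gene or the closest TSS alone, and a distance of at most 100 kb moved none of them, and since every listed IDR was already within 0.01 that limit could not. Requiring summits of all 4 subunits within 250 bp reduced the regions with all 4 from 8 to 5. With the IDR limited to 0.001, which was added after seeing the data, there remained 4 regions for RelA, 4 for all 4 subunits and 11 for RelB. For all 4 subunits, the share of all regions (2.35% without these limits) was not recomputed under either limit, so that comparison was not repeated. Leaving out the regions of TNFAIP3, also chosen after seeing the data, left 21 for p50 and 22 for p52 of 26 regions. These counts fell because fewer regions enter, but they were nearly equal, unlike 32 for p50 and 39 for p52 over all 44. The median balance went from -0.40 to -0.09, within its interval. Among medians that stayed inside their intervals, the limit of 0.001 raised RelA fold enrichment from 8.19 to 13.1 and RelB from 9.82 to 17.8, since the weaker calls drop out, and the RelB percentile of 55.4 became 44.1 by pileup and 58.2 or 36.3 by the signal value of a single replicate. No paired analysis was possible because the deposited calls and counts merge the replicates, and leaving out a replicate could not be done for the same reason. Uncalled regions held 5 to 38 RelA reads and 2 to 38 RelB reads. Their median densities were 16 reads per kb for RelA and 16.6 for RelB. All regions not called for the subunit had medians of 15.3 and 16.5. Without input counts beside them, these reads do not decide whether a subunit was weakly bound or absent there.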
